A study of Mus musculus with 6 samples.

Results

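Major histocompatibility complex (MHC) class I molecules display peptides cut from the proteins of a cell to CD8+ T cells, and the 9 genes described here encode that pathway: *H2-K1* and *H2-D1* (the classical heavy chains), *B2m* (the shared light chain), *Tap1*, *Tap2* and *Tapbp* (peptide transport and loading), *Nlrc5* (the class I transactivator) and *Psmb8* and *Psmb9* (immunoproteasome subunits). They were chosen by gene symbol and role, and all 9 of them were found among the 17987 genes measured. The study sequenced RNA of lung tumor specimens, 1 library per mouse, from 3 mice with *Usp24* C1695A (M134, M145, M164) and 3 with *Usp24* WT (M1354, M1364, M1370), to ask how tumors differ when Usp24 is catalytically inactive. Every mouse carried inducible *Egfr* L858R (Scgb1a1-rtTA with TetO-*Egfr* L858R) and received doxycycline at 0.5 g/liter for 10 weeks, the controls included. C1695A replaces the catalytic cysteine of the deubiquitinase Usp24, by the study's account on both alleles of C57BL/6J mice, and the sample titles call the mutant libraries KO. The *Scgb1a1* promoter, which is active in club cells of the airway, drives the transactivator of the oncogene, whereas the specimens were bulk tissue that also held other cells. Age and sex of the mice were not given in the sources used here.

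In the class I pathway, the proteasome cuts cytosolic proteins into peptides. Interferon exchanges its constitutive catalytic subunits for the inducible ones, which changes the peptides that are made. The Tap1-Tap2 heterodimer pumps peptides into the endoplasmic reticulum, tapasin (*Tapbp*) holds empty heavy chains beside the pump, and a heavy chain leaves for the cell surface once it has bound both a peptide and β2-microglobulin. Nlrc5 has no DNA-binding specificity of its own and works with factors already assembled on class I promoters. In lung tumors, loss of this pathway is a known route by which tumor cells become invisible to CD8+ T cells. RNA levels do not give the amount of class I molecules on the cell surface, and in bulk tissue fewer cells of a type and less RNA per cell cannot be told apart.

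The promoters of 5 of the genes are shown for the comparisons of genes made below: *H2-K1* and *H2-D1* had nearly the same pattern over mice, *B2m* departed from both, *Tap1* shares its upstream region with *Psmb9*, and *Psmb8* is the partner of *Psmb9*. Each window runs 5′ to 3′ from 250 bases before to 50 bases after the transcription start in RefSeq on GRCm38.p6, and 7 of the 9 genes (all but *Tap2* and *Nlrc5*) were matched by symbol. Capitals mark matches, on either strand, to an interferon regulatory factor (IRF) element in either of 2 forms (GAAANNGAA or GAANNGAAA, the second added after the windows were read), an interferon-gamma activated site (GAS, TTCNNNGAA) or the kappa B consensus of NF-kappa B.
*H2-K1*, chr17:34000298-34000597, minus strand: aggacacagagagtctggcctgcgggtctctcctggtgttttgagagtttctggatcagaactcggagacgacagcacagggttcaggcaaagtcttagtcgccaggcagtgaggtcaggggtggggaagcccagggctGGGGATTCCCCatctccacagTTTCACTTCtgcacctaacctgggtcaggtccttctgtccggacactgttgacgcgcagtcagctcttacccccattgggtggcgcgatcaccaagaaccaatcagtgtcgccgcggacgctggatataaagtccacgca
*H2-D1*, chr17:35262844-35263143, plus strand: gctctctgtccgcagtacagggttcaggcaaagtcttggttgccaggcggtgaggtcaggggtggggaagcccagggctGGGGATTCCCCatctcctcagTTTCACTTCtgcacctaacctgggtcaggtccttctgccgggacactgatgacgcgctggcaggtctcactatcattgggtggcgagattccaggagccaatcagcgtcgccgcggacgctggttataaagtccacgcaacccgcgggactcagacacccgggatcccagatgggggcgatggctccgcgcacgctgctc
*B2m*, chr2:122147437-122147736, plus strand: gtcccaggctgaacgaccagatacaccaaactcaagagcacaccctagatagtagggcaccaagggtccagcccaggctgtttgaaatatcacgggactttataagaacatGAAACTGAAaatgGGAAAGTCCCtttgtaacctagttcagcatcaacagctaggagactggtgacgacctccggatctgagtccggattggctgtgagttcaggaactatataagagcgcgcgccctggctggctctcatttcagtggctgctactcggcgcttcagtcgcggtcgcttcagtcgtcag
*Tap1*, chr17:34187306-34187605, plus strand: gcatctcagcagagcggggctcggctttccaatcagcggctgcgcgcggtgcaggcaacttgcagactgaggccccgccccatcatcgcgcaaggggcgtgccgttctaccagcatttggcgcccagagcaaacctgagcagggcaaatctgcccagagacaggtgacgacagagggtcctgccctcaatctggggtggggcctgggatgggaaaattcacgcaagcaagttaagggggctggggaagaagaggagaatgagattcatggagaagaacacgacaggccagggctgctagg
*Psmb8*, chr17:34197945-34198244, plus strand: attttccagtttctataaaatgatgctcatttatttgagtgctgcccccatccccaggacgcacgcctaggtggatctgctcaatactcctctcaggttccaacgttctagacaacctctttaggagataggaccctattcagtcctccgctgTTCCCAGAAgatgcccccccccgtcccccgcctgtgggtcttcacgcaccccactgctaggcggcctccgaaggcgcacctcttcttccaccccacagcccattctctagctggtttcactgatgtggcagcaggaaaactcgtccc

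The *H2-K1* and *H2-D1* windows held an identical run of 47 bases that spans the kappa B match, at 111 bases before the start in *H2-K1* and 171 in *H2-D1*. These positions count from the first capital, and in both genes 2 kappa B matches overlap there. Downstream of it, both heavy chain genes had the second form of the IRF element on the other strand, at 90 bases before the start in *H2-K1* and 150 in *H2-D1*. *B2m* had the first form, at 139 bases before its start, and a kappa B match on the other strand at 126. The only GAS match was that of *Psmb8*, at 97 bases before the start. Of all 32851 promoter windows of this length, 8.56% held the first form of the IRF element, 7.52% the second, 8.30% the GAS and 8.46% the kappa B consensus, against 1, 2, 1 and 3 of the 7 genes. The CRE core TGACG, to which CREB and ATF proteins bind, was present in 5 of the 7 genes and 20.8% of all windows, and the CCAAT box (CCAAT), the site of the NF-Y complex, in 6 of the 7 genes and 37.4% of all windows. *Tap1* and *Psmb9* start 226 bases apart and are read in opposite directions, so 275 of the 300 bases of their windows are the same. Their CRE matches are the same site, and so are their CCAAT matches, so the counts above hold these sites once for each gene. These matches describe letters in the windows and not occupied sites. All told, 7 of the 9 genes lie on chromosome 17, which holds the mouse MHC, while *B2m* lies on chromosome 2 and *Nlrc5* on chromosome 8.

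Reads summed over the 17987 genes measured were 7167000 to 12516561 in *Usp24* C1695A mice and 8950184 to 14650273 in *Usp24* WT mice. The 9 genes had from 84 reads (*Psmb9* in M164) to 16709 reads (*B2m* in M145) in a library. Mouse M164 stood apart: mitochondrial transcripts took 17.2% of these reads in M164, against 1.74% to 3.10% in the other 5 libraries, and its summed adipose markers were 190735 normalized read counts, against 510 to 11486. Several mitochondrial genes, such as *mt-Nd1* and *mt-Co3*, were not among the genes measured, so these percentages are not mitochondrial shares of whole libraries. Alveolar type 2 markers, which include surfactant genes, marked every specimen as lung, with sums of 162713 to 470077 in C1695A mice and 520441 to 594210 in WT mice. *Usp24* transcripts were 887, 1054 and 1125 in C1695A mice and 1194, 895 and 1225 in WT mice, which does not check a point mutation. Of the 6 mice, M1364 and M1370 (both WT) had no read of *Eif2s3y*, *Kdm5d* or *Uty*, which lie on the Y chromosome, and the other 4 had reads of them. Every C1695A mouse thus had Y-linked reads, but of the WT mice only M1354 did. If sex is read from these genes, it was not balanced between the groups. Its part in the differences below cannot be fully told apart from that of *Usp24*. Below, values of C1695A mice stand in the order M134, M145 and M164, and those of WT mice in the order M1354, M1364 and M1370. The normalized read count is the number of reads of a gene divided by 1 size factor per library.

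Mean levels in *Usp24* C1695A tumors were between 0.900 (*H2-D1*) and 1.61 times (*Nlrc5*) those in *Usp24* WT tumors, and none of the 9 differences passed the test (limma-trend on log2 of the value plus 1, with Benjamini-Hochberg adjustment over 16640 tested genes and an adjusted p under 0.05 as the threshold). The lowest adjusted p among them was 0.751, for *Nlrc5*. Across all tested genes 0 were called (0%), and 922 (5.54%) had an unadjusted p under 0.05, which 0 of the 9 genes had. DESeq2 on the recovered reads called 36 genes and edgeR's quasi-likelihood test 0, with 1367 and 1144 genes at an unadjusted p under 0.05, and neither tool called any of the 9. In 1847 of the tested genes (11.1%) every C1695A mouse lay above or below every WT mouse, and 0 of the 9 genes were among them. Fold changes (C1695A over WT, on the log2 scale) were positive for 6 of the 9 genes, against 48.3% of all tested genes, with a median of 0.20 against −0.02 over all tested genes. That count became 9 without M164 (median 0.15) and 5 without M145 (median 9.3e-04), so it rests on single mice. The 95% intervals of the 9 differences reached at most from −0.69 (*H2-D1*) to 1.53 (*Nlrc5*), and changes inside them were not resolved with 3 mice per group.

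**Figure D1:**
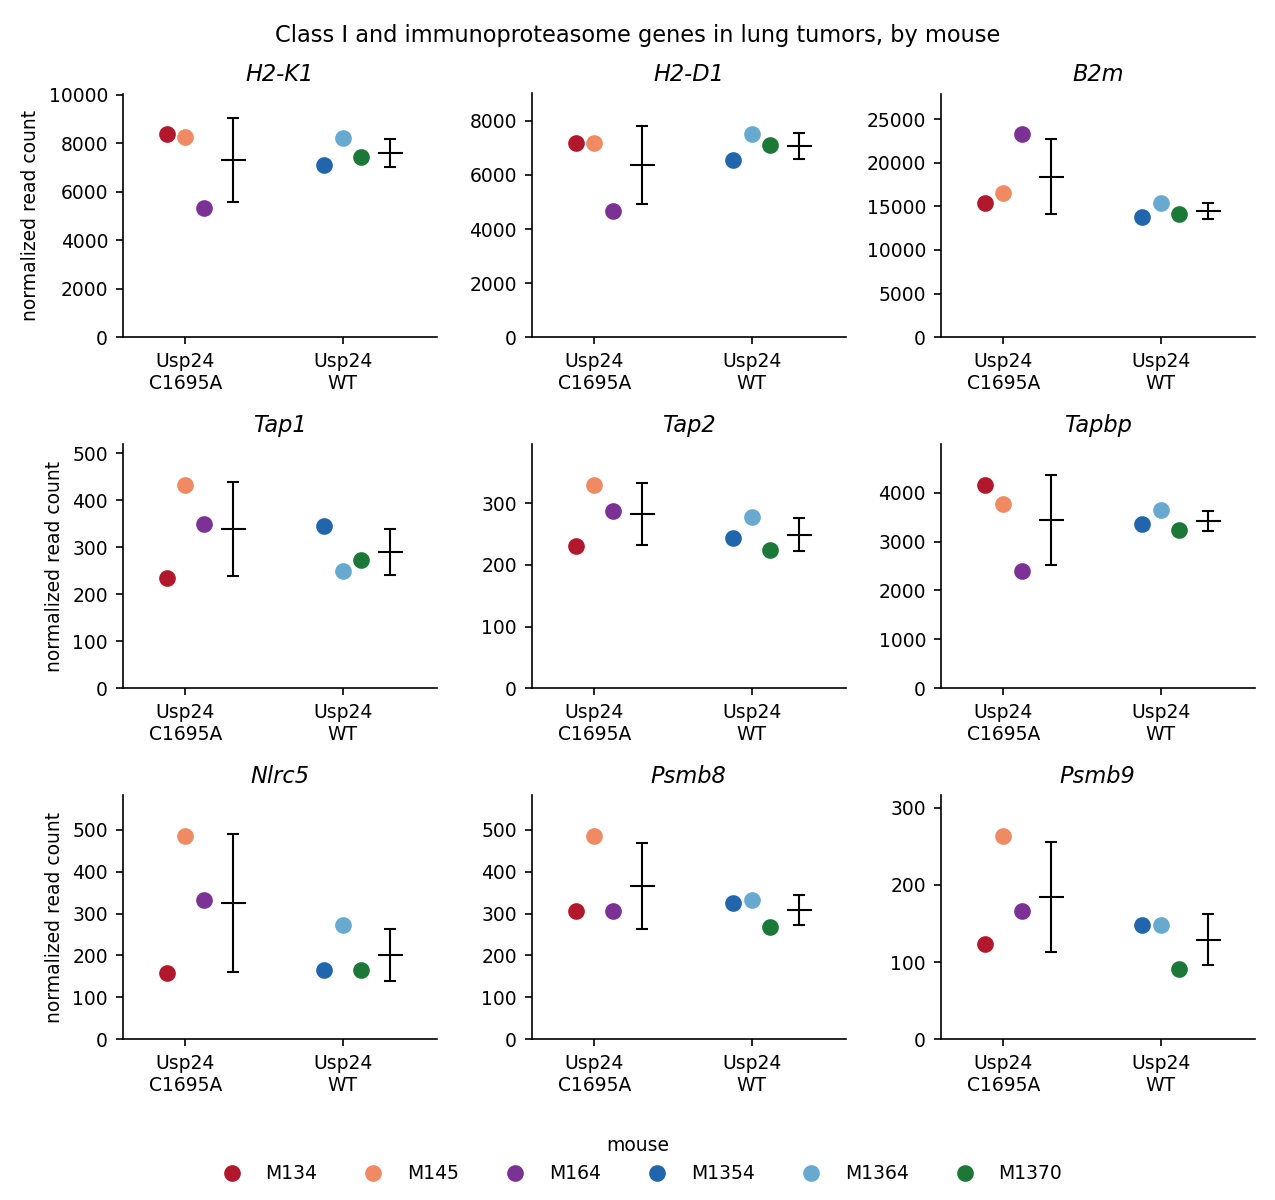
Normalized read counts of the 9 genes in each mouse, 1 point per mouse colored by mouse, with the *Usp24* C1695A group left of the *Usp24* WT group; the horizontal mark and bars give the group mean ± SD (n = 3) and every vertical axis starts at 0. M164 (purple) is lowest for *H2-K1*, *H2-D1* and *Tapbp* and highest for *B2m*, and M145 (orange) is highest for *Tap1*, *Tap2*, *Nlrc5*, *Psmb8* and *Psmb9*.

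*H2-K1* encodes the K heavy chain, which binds the peptide and carries it to the T cell receptor. It had 8372, 8269 and 5320 normalized read counts in C1695A mice and 7083, 8209 and 7446 in WT mice. M134 and M145 were above all WT mice and M164 was below them, so the groups overlapped. The log2 fold change was −0.08 (SE 0.23, 95% interval −0.61 to 0.46, adjusted p = 0.936, limma-trend), and it was 0.14 without M164. *H2-D1*, the D heavy chain, had 7197, 7186 and 4682 normalized read counts in C1695A mice, against 6561, 7509 and 7114 in WT mice. Again M164 alone lay below the WT range. The log2 fold change of *H2-D1* was −0.18 (SE 0.23, 95% interval −0.69 to 0.34, adjusted p = 0.848, limma-trend), and 0.03 without M164. Of the 1953 possible 150-base windows of its transcript, 35 (1.79%) are identical in *H2-Q1*, and reads from there may have been assigned to either gene. The other 8 genes had 0 such windows.

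*B2m*, the light chain of every class I molecule, had 15426, 16530 and 23289 normalized read counts in C1695A mice, against 13788, 15445 and 14183 in WT mice. M145 and M164 lay above all WT mice and M134 within their range. Its log2 fold change was 0.33 (SE 0.24, 95% interval −0.23 to 0.88, adjusted p = 0.756, limma-trend) and 0.14 without M164. In M164 *B2m* stood at 1.61 times the WT mean, while *H2-K1* stood at 0.702 and *H2-D1* at 0.663 times theirs. The light chain and its heavy chains thus lay on opposite sides of the WT mean in that specimen. The normalized count of *B2m* over that of *H2-K1* plus *H2-D1*, a ratio not corrected for length and read between mice only, was 0.991, 1.07 and 2.33 in C1695A mice and 1.01, 0.983 and 0.974 in WT mice. In 5 of the 6 mice it was between 0.974 and 1.07, and M164 was the exception. *H2-K1* over *H2-D1* was 1.16, 1.15 and 1.14 in C1695A mice and 1.08, 1.09 and 1.05 in WT mice, so each mutant mouse was above each WT mouse by a small margin. Both ratios were chosen after their values were seen and were not tested.

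Of the transport and loading genes, *Tap1* had 234, 432 and 350 normalized read counts in C1695A mice and 345, 250.5 and 273 in WT mice. The highest and the lowest mouse were both mutant. Its log2 fold change was 0.20 (SE 0.27, 95% interval −0.42 to 0.81, adjusted p = 0.856, limma-trend). Without M145 it was −7.8e-04. *Tap2*, the other subunit of the pump, had 230.1, 329 and 287 normalized read counts in C1695A mice, against 244, 278 and 225 in WT mice. M145 and M164 exceeded all WT mice and M134 did not. The log2 fold change of *Tap2* was 0.17 (SE 0.22, 95% interval −0.33 to 0.67, adjusted p = 0.850, limma-trend) and 0.05 without M145. *Tapbp*, encoding the tapasin bridge, had 4157, 3761 and 2398 normalized read counts in C1695A mice and 3361, 3640.2 and 3238 in WT mice. As with *H2-K1*, M134 and M145 were above the WT mice and M164 was below, at 0.702 times the WT mean. Its log2 fold change was −0.03 (SE 0.23, 95% interval −0.56 to 0.50, adjusted p = 0.979, limma-trend) and 0.21 without M164.

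*Nlrc5*, the transactivator of this gene set, had the widest spread of the 9 genes. It had 157, 485 and 333 normalized read counts in C1695A mice and 166, 273 and 165 in WT mice. M145 reached 2.41 and M164 1.65 times the WT mean, whereas M134 was below all WT mice at 0.780. The log2 fold change was 0.58 (SE 0.41, 95% interval −0.36 to 1.53, adjusted p = 0.751, limma-trend), and 0.22 without M145 and 1.03 without M134. *Psmb8* encodes the inducible subunit that replaces Psmb5. Its normalized read counts were 306, 485 and 307 in C1695A mice, against 325, 331 and 267 in WT mice. M145 alone exceeded the WT range, and M134 and M164 lay inside it. The log2 fold change of *Psmb8* was 0.22 (SE 0.24, 95% interval −0.33 to 0.77, adjusted p = 0.824, limma-trend) and 9.3e-04 without M145. *Psmb9* encodes the inducible subunit that replaces Psmb6. It had 124, 263 and 166 normalized read counts in C1695A mice, against 147.5, 148 and 91.2 in WT mice. M145 stood at 2.04 times the WT mean, M164 was above the WT range and M134 within it. Its log2 fold change was 0.48 (SE 0.34, 95% interval −0.31 to 1.27, adjusted p = 0.754, limma-trend) and 0.19 without M145.

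**Figure D2:**
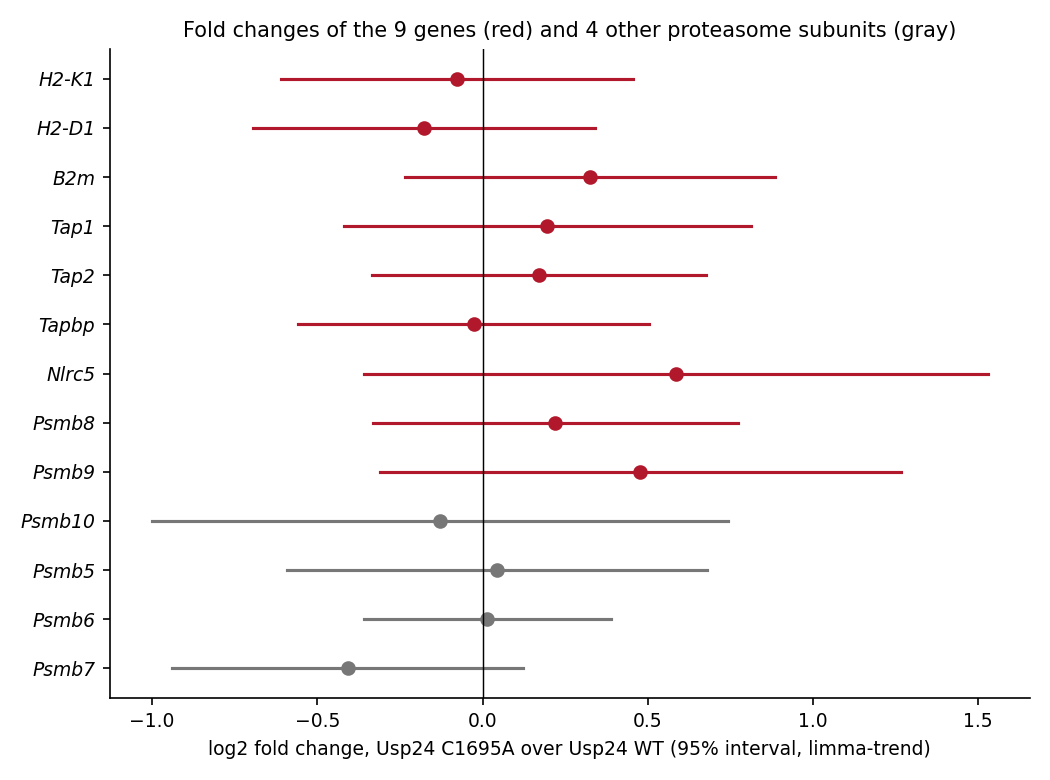
Log2 fold changes, *Usp24* C1695A over *Usp24* WT, of the 9 genes (red) and of *Psmb10*, *Psmb5*, *Psmb6* and *Psmb7* (gray); points are limma-trend estimates and lines their 95% intervals (n = 3 mice per group). Every line crosses 0, and the longest among the 9 genes is that of *Nlrc5*, from −0.36 to 1.53.

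The 9 genes fell into 3 patterns over the mutant mice. *H2-K1*, *H2-D1* and *Tapbp* were lowest in M164, *B2m* was highest there, and *Tap1*, *Tap2*, *Nlrc5*, *Psmb8* and *Psmb9* were highest in M145. The mean of the standardized log2 values of the 9 genes was −0.20, 1.09 and −0.22 in C1695A mice and −0.23, 0.14 and −0.59 in WT mice. In M145 the genes highest there stood at 1.32 (*Tap2*) to 2.41 (*Nlrc5*) times the WT mean. *H2-D1*, *H2-K1*, *Tapbp* and *B2m* stood at 1.02, 1.09, 1.10 and 1.14 times theirs. M145 was thus the one mouse in which the mean over the set was high, and the other 2 mutant mice lay inside the WT range of that mean. The 5 other genes with a mean value of at least 100 whose log2 values followed this mean most closely, among 10738 compared by Pearson r over the 6 mice, were *Bst2* (r = 0.996), *C1qa* (0.983), *Snhg12* (0.982), *Invs* (0.977) and *Fermt3* (0.968). *Bst2* encodes tetherin, an interferon-induced protein that holds viruses at the cell surface. It had 131, 248 and 139 normalized read counts in C1695A mice, against 138, 161 and 114 in WT mice. *C1qa*, a chain of complement C1q made by macrophages, had 253, 362 and 269 in C1695A mice and 271, 288 and 236 in WT mice. Each of the 5 had its highest value in M145, so their likeness to the set leans on that mouse, and genes ranked over 6 mice among this many are given as a description only.

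Levels between genes were compared per kilobase of merged exons (GENCODE annotation on GRCm38), as normalized counts per kilobase. *B2m* was by far the most abundant, at 21413 in C1695A mice and 16828 in WT mice. The heavy chains came next, *H2-D1* at 2464 in C1695A mice and 2738 in WT mice and *H2-K1* at 2492 in C1695A mice and 2580 in WT mice. By this measure *H2-D1* was above *H2-K1* in each of the 3 WT mice, and their ranges over mice overlapped in both groups. That order depends on the length used. Merged exons have 2938 bases in *H2-K1* and 2579 in *H2-D1*, whereas their longest coding transcripts have 1619 and 2102. Before division by length, *H2-K1* was above *H2-D1* in every mouse. *Tapbp* averaged 948 in C1695A mice and 941 in WT mice. The remaining genes were far lower, first *Psmb8* at 108 in C1695A mice and 91.0 in WT mice. *Tap2* averaged 74.6 in C1695A mice and 65.8 in WT mice, and *Tap1* 61.9 in C1695A mice and 52.8 in WT mice. *Psmb9* averaged 50.4 in C1695A mice and 35.2 in WT mice, and *Nlrc5* was lowest, at 38.2 in C1695A mice and 23.7 in WT mice. The last 4 genes are listed by their means, and their order is not firm. It also depends on the length used. Merged exons have 3660 bases in *Psmb9*, 5476 in *Tap1* and 3781 in *Tap2*, whereas their longest coding transcripts have 1352, 2953 and 3442. In C1695A mice *Tap2* ranged over mice from 60.9 to 87.1, *Tap1* from 42.8 to 78.9, *Psmb9* from 33.8 to 71.9 and *Nlrc5* from 18.5 to 57.1, so neighbors overlapped. In WT mice *Tap2* (59.4 to 73.5) overlapped *Tap1* (45.7 to 63.0), and *Psmb9* (24.9 to 40.5) overlapped *Nlrc5* (19.4 to 32.2). The exons of *Tap1* and *Psmb9* overlap by 212 bases on opposite strands, *Tapbp* overlaps *Zbtb22* on the same strand, and *Tap2*, *Psmb8* and *Nlrc5* overlap noncoding or predicted genes on the opposite strand. Whether reads were counted by strand is not given in the sources used here, so reads from such stretches could have been split.

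An inducible subunit takes the place of a constitutive one in the same proteasome, and the pairs were compared within each library as differences of log2(value + 1), in which the size factor nearly cancels. The log2 ratio of *Psmb8* to *Psmb5* was 0.47, 0.98 and 1.06 in C1695A mice and 0.77, 0.47 and 0.74 in WT mice. M145 and M164 were above the WT mice and M134 was at the level of the lowest. The means were 0.84 ± 0.32 in C1695A mice and 0.66 ± 0.17 in WT mice (SD, n = 3 each), a difference of 0.18 (two-sided exact permutation test, p = 0.5). For *Psmb9* to *Psmb6* the log2 ratio was −2.10, −0.94 and −1.70 in C1695A mice and −1.85, −1.83 and −2.45 in WT mice. The means were −1.58 ± 0.59 in C1695A mice and −2.04 ± 0.35 in WT mice (SD, n = 3 each), which differed by 0.46 (two-sided exact permutation test, p = 0.4). *Psmb10*, the remaining inducible subunit, against *Psmb7* gave log2 ratios of −0.96, −0.64 and −1.52 in C1695A mice and −1.81, −0.25 and −1.89 in WT mice. The means of this pair were −1.04 ± 0.45 in C1695A mice and −1.32 ± 0.92 in WT mice (SD, n = 3 each), and the difference was 0.28 (two-sided exact permutation test, p = 0.8). The groups overlapped in all 3 ratios, and with 3 mice against 3 this test cannot go below 0.1. The constitutive genes gave log2 fold changes of 0.04 (*Psmb5*), 0.01 (*Psmb6*) and −0.41 (*Psmb7*), and that of *Psmb10* was −0.13.

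**Figure D3:**
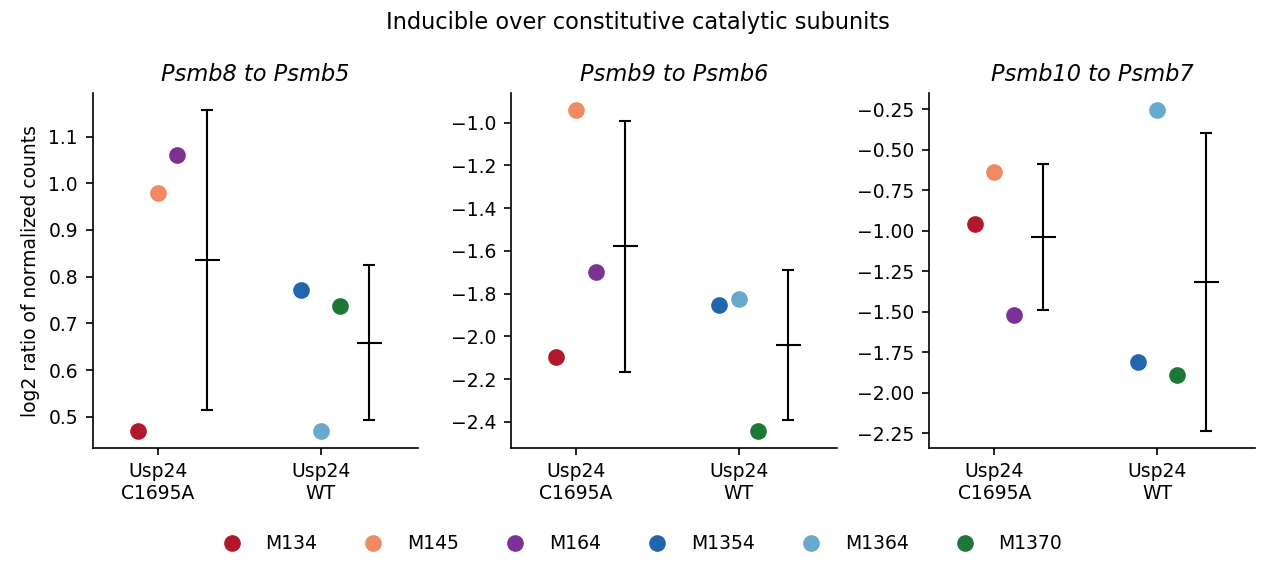
Log2 ratio of normalized read counts of an inducible to a constitutive proteasome subunit in each mouse, for *Psmb8* to *Psmb5*, *Psmb9* to *Psmb6* and *Psmb10* to *Psmb7*; points are mice, *Usp24* C1695A left of *Usp24* WT, with mean ± SD (n = 3), and the vertical axes differ and do not start at 0. The groups overlap in each of the 3 panels, and M145 is the highest of the 6 mice for *Psmb9* to *Psmb6* (−0.94).

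The other genes of the pathway were described from lists, and limma-trend called 0 of them, against 0% of all tested genes. Of the other class I heavy chains, 16 of 19 could be tested, 10 had a positive log2 fold change and the median was 0.14. *H2-K2* had 101, 123 and 105 normalized read counts in C1695A mice, against 41.6, 97.9 and 49.8 in WT mice, and *H2-T10* had 45.6, 77.2 and 67.3 in C1695A mice, against 36.4, 44.6 and 32.0 in WT mice. Every C1695A mouse was above every WT mouse for these 2 of the 16 genes, a share near the 11.1% of all tested genes whose groups did not overlap, with log2 fold changes of 0.88 and 0.72 and an adjusted p of 0.738 each (limma-trend). *Cd1d1*, which presents lipids to natural killer T cells, had 97.3, 212 and 766 normalized read counts in C1695A mice, against 94.5, 124 and 111 in WT mice. That value was led by M164, the mouse with high adipose markers, whose part in it was not tested. *H2-T24* had a log2 fold change of 0.47.

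All 6 other genes tested for peptide trimming and loading had negative log2 fold changes, with a median of −0.18 and 0 called. *Pdia3*, the thiol oxidoreductase of the loading complex, had 10719, 11944 and 11881 normalized read counts in C1695A mice, against 12735, 12156 and 13700 in WT mice. Every mutant mouse was below every WT mouse in this 1 of the 6 genes, against 11.1% of all tested genes without overlap, and the log2 fold change was −0.16 (adjusted p = 0.844, limma-trend). The chaperone *Canx*, the trimming peptidase *Erap1* and the tapasin-related *Tapbpl* had log2 fold changes of −0.24, −0.20 and −0.26. *Psme1* and *Psme2*, which encode the activator that caps the immunoproteasome, and *Psmb10* also had negative log2 fold changes, of −0.11, −0.0012 and −0.13. Positive estimates were therefore not shared by all parts of the pathway.

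Among regulators of class I transcription, 9 of 22 tested genes had positive log2 fold changes and the median was −0.02. *Irf8*, a factor of B cells, dendritic cells and macrophages, had 308, 838 and 301 normalized read counts in C1695A mice, against 220.2, 236 and 197 in WT mice. Its log2 fold change was 0.97 (SE 0.38, adjusted p = 0.738, limma-trend), and M145 was far above the rest. The groups did not overlap for *Irf8* alone, 1 of the 22 regulators, against 11.1% of all tested genes. *Nfya*, a subunit of NF-Y, had a log2 fold change of −0.38, and *Rela*, a subunit of NF-kappa B, −0.31. Of the other interferon-gamma targets 14 of 17 could be tested, and 11 had a positive log2 fold change (median 0.19). *Cxcl9*, a chemokine that draws T cells, had 42.6, 119 and 329 normalized read counts in C1695A mice, against 26.0, 31.7 and 25.4 in WT mice. All C1695A mice were above all WT mice (log2 fold change 2.07, SE 0.65, adjusted p = 0.738 by limma-trend), and DESeq2 called it (adjusted p = 0.040). It was the only one of the 14 targets without overlap, against 11.1% of all tested genes. The guanylate-binding proteins *Gbp3*, *Gbp7* and *Gbp2* had log2 fold changes of 0.43, 0.37 and 0.36.

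Class II genes, which present extracellular peptides, were set beside the class I genes. Of 7 tested, 1 had a positive log2 fold change, and the median was −0.51. *Cd74*, the invariant chain, had 19299.7, 18377 and 6967 normalized read counts in C1695A mice, against 19432, 19925 and 21765 in WT mice. Every C1695A mouse was below every WT mouse, M134 only just and M164 far below. The groups did not overlap for *Cd74* alone, 1 of the 7 class II genes, against 11.1% of all tested genes. *H2-DMb1* and *H2-DMa*, which load class II molecules, had log2 fold changes of −0.68 and −0.53. The exception was *H2-Ob*, a class II cofactor of B cells, at 42.6, 1444 and 329 normalized read counts in C1695A mice, against 38.4, 61.9 and 63.0 in WT mice. Summed over the 8 class II genes in the table, M164 had 12149, against 30640 and 33669 in the other mutant mice and 31288 to 33956 in WT mice.

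Cell type markers varied along with these patterns. M145, highest for *Tap1*, *Tap2*, *Nlrc5*, *Psmb8* and *Psmb9*, also had the highest sums of T cell, CD8 T cell, B cell and dendritic cell markers. T cell markers (all 11 in the table) summed to 460, 2250 and 901 normalized read counts in C1695A mice, against 325, 415 and 591 in WT mice. Of these sums *Cd2* alone made up 295, 325 and 307 in C1695A mice and 160, 167 and 307 in WT mice. The CD8 markers *Cd8a* and *Cd8b1* summed to 12.2, 386 and 43.6 in C1695A mice and 17.7, 21.6 and 31.0 in WT mice. M145 was the one mouse in which CD8 transcripts were abundant. Natural killer and cytotoxic markers, 6 of 7 in the table, had their highest sum in M164 instead. Their sums were 52.7, 113 and 333 in C1695A mice and 74.8, 64.8 and 112 in WT mice, and 2 of them could be tested. B cell markers (all 9 in the table) summed to 317, 10228 and 4085 in C1695A mice and 366, 338 and 359 in WT mice, so M134 was at the WT level. Dendritic cell markers (7 of 8 in the table) were 928, 1560 and 1235 in C1695A mice and 504, 737 and 557 in WT mice. Not every dendritic cell marker followed this sum, as *Clec9a* and *Zbtb46* were highest in M164. *Clec9a* had 453, 306 and 539 in C1695A mice and 188, 258 and 221 in WT mice. *Zbtb46* had 338, 458 and 483 in C1695A mice and 243, 379 and 250 in WT mice. Of the T cell and B cell markers, *Cd5* was at 0 in M1354 and *Fcmr* at 0 in M134. The part of these cells in the values of the 9 genes was not tested.

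M164, lowest for *H2-K1*, *H2-D1* and *Tapbp*, also had the lowest sums of macrophage and alveolar type 2 markers. Macrophage markers (all 8 in the table) summed to 26541, 22354 and 4684 in C1695A mice, against 33319, 25391 and 41289 in WT mice. Of these sums *Chil3* alone made up 18406, 15435 and 1358 in C1695A mice and 24631, 17401 and 30209 in WT mice. *Marco* and *Adgre1* were not lowest in M164. Epithelial markers summed to 30271, 21862 and 12836 in C1695A mice and 28732, 25417 and 25662 in WT mice. Adipose markers summed to 704, 11486 and 190735 in C1695A mice and 654, 656 and 510.4 in WT mice, with *Adipoq*, *Plin1* and *Cfd* at 0 in some libraries. Cardiac muscle markers were 884, 469 and 5514 in C1695A mice and 241, 239 and 129.7 in WT mice. Marker sums of several other cell types were also highest in M164, the mouse with the highest *B2m*. Its club cell sum was 98702, against 23571 to 47820 in the other 5 mice, and its fibroblast sum 40273, against 14885 to 23622. Endothelial markers summed to 21571 in M164, against 11689 to 15252 in the others, and plasma cell markers (5 of 6 in the table) to 52148, against 275 to 10271. *Ighm* alone made up 42956 of that plasma cell sum. Not every marker followed its sum. *Scgb3a1* (club cell), *Col1a2* and *Pdgfra* (fibroblast), *Cldn5* and *Vwf* (endothelial) and *Igha* and *Ighg2b* (plasma cell) were not highest in M164, and the rest of these lists were. The share of other tissue in the specimen of M164 was not tested as a part of its class I values, low or high. Of the C1695A mice, M134 was nearest to the WT mice in these lymphocyte and adipose sums, and for 7 of the 9 genes its value lay within or below the WT range.

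**Figure D4:**
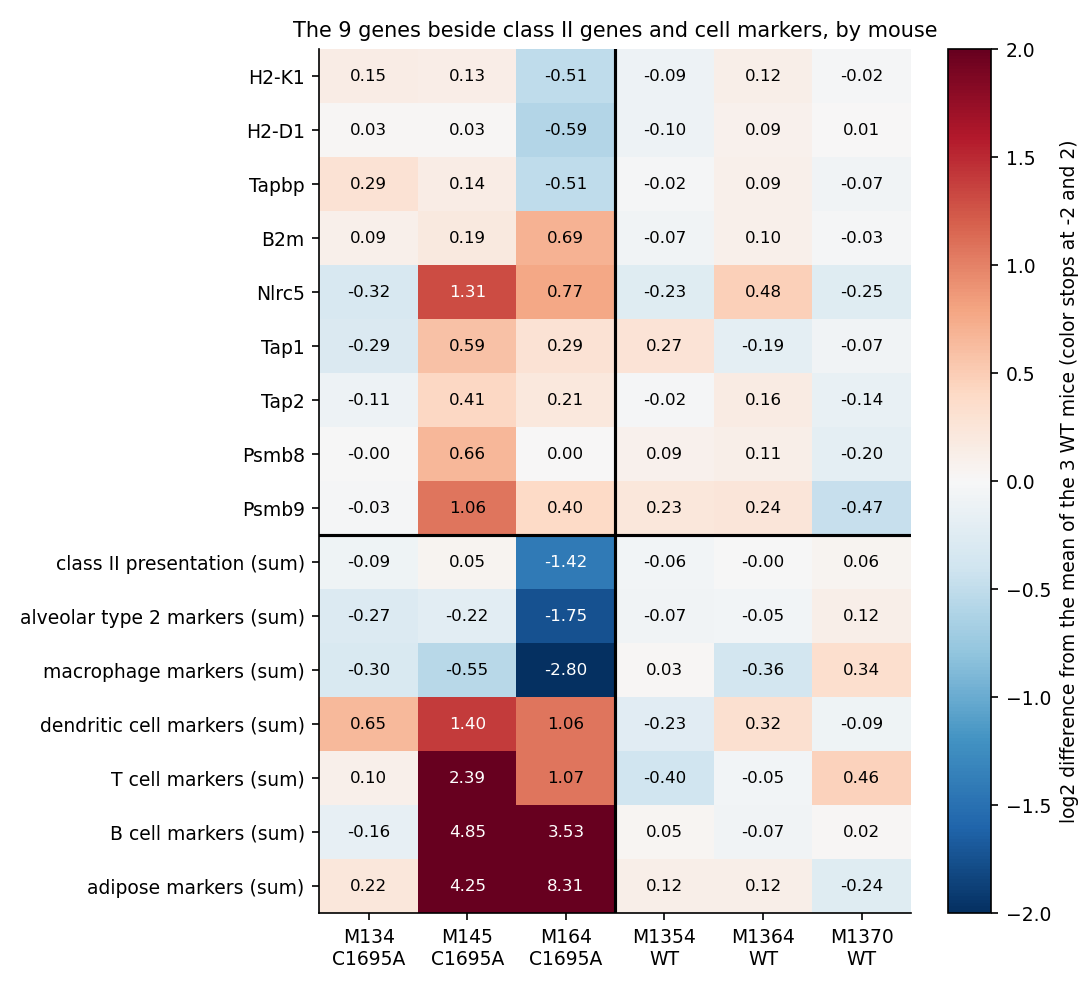
Log2 difference of each mouse from the mean of the 3 *Usp24* WT mice, for the 9 genes (upper rows) and for summed class II genes and cell type markers (lower rows), with the *Usp24* C1695A mice in the 3 left columns; red is higher and blue lower, and color stops at −2 and 2 while the printed numbers do not. M145 is red for *Nlrc5* (1.31), *Psmb9* (1.06) and the lymphocyte markers, and M164 is blue for *H2-K1* (−0.51), *H2-D1* (−0.59), *Tapbp* (−0.51) and macrophage markers (−2.80) but red for *B2m* (0.69).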

How the data were processed

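RNA of 6 lung tumor specimens was sequenced as 150-bp paired reads from 3 μg of total RNA. The authors deposited normalized signal values, that is, read counts of each gene scaled by the size factor of its library. Alignment is credited to HISAT2 2.1.0 and the build to mm39 in the submitters' processing notes; the counter and annotation are not given in the sources used here. All 107922 values (100%) were whole multiples of 1 step per library within 1e-06, so whole reads were recovered. For M145 the step is so near 1 that this rests on the residuals alone.

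The 16640 of 17987 genes that reached a value of 10 in 3 or more libraries were tested on log2(value + 1) by limma-trend (limma 3.58.1, R 4.3.3), without covariates, with Benjamini-Hochberg adjustment. Recovered reads were also tested with edgeR 4.0.16 and DESeq2 1.42.0. Ratios were compared by exact permutation. Mice were the replicates, and nothing states whether they shared a litter or batch.

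The 9 genes and all lists were chosen with earlier results of these data known. Genes named besides the 9 were the proteasome subunits of the ratios, up to 4 genes with the lowest limma-trend p of each pathway list, the 5 nearest genes and *Usp24*; 1 gene that this rule names is not reported here. Marker and Y-linked genes are named from their lists, and *H2-Q10*, *H2-M9* and *H2-M2* were added after their values were seen. *H2-Q1*, *H2-T3* and other list genes without a row were not analysed here. Alternatives were other pseudocounts, filters, scalings and tools, array weights, a covariate of Y-linked genes, and leaving out each mouse. The fit was tested on simulated data. Drawing used Python 3.11.15 and matplotlib 3.10.9.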

Additional observations from a re-analysis of the deposited data

How the results depend on the processing

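None of the 9 genes passed an adjusted p of 0.05 under any of the 17 alternatives, and the lowest adjusted p was 0.088, for *Nlrc5* with limma array weights. *B2m*, *Tap2*, *Nlrc5*, *Psmb8* and *Psmb9* kept a positive log2 fold change under all of them. The sign of *H2-K1* reversed with quantile normalization (0.043), array weights (0.14), a covariate of Y-linked genes (0.014) and without M164 (0.14). *H2-D1* reversed with array weights (0.033) and without M164 (0.029), and *Tap1* with the Y-linked covariate (−0.067) and without M145 (−7.8e-04). *Tapbp* reversed with TMM scaling (0.010), quantile normalization (0.11), edgeR (0.043), DESeq2 (0.030), array weights (0.16), without M164 (0.21) and without WT mouse M1364 (0.021). Without single mice the log2 fold changes ranged from −0.19 to 0.14 for *H2-K1*, −0.28 to 0.029 for *H2-D1*, 0.14 to 0.44 for *B2m*, −7.8e-04 to 0.44 for *Tap1*, 0.05 to 0.31 for *Tap2*, −0.18 to 0.21 for *Tapbp*, 0.22 to 1.03 for *Nlrc5*, 9.3e-04 to 0.33 for *Psmb8* and 0.19 to 0.73 for *Psmb9*. The log2 ratio difference of *Psmb10* to *Psmb7* reversed without WT mouse M1370 (−0.0087), and ranged up to 0.81 without single mice. Genes called across the table numbered 0 with all mice, 36 with DESeq2, 40 without C1695A mouse M134 and 5 without WT mouse M1354, a range of 0 to 40 without single mice. DESeq2 called 1 interferon-gamma target, *Cxcl9*. The cause of these changes was not tested. The median log2 fold change over all genes was −0.02, and −0.07 to 0.03 under the alternatives. The 9 genes had 84 to 16709 reads per library. *Tap2* had the lowest standard error of the 9 (0.22), and *Nlrc5* the highest (0.41). No paired analysis was possible because the replicate numbers are mouse numbers that the groups do not share.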

Other observations

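Some class I-like genes with few reads were high in M164 alone. *H2-Q10*, a heavy chain best known as a secreted product of liver, had 14.2, 28.7 and 135 normalized read counts in *Usp24* C1695A mice and 10.4, 25.9 and 20.7 in *Usp24* WT mice. *H2-M9* had 2.03, 8.90 and 45.5 in C1695A mice and 2.08, 0 and 0.940 in WT mice, and was below the filter on low values. *H2-M2* was highest in M145, at 66.9, 325 and 53.5 in C1695A mice and 140, 207 and 127 in WT mice. These 3 genes were chosen after their values were seen, and no test was made for that choice. *Tap1* over *Tap2* was 1.02, 1.31 and 1.22 in C1695A mice and 1.41, 0.902 and 1.21 in WT mice, and *Tap1* over *Psmb9*, which share an upstream region, was 1.89, 1.64 and 2.11 in C1695A mice and 2.34, 1.69 and 2.99 in WT mice. The groups overlapped in both ratios.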
